A study of Saccharomyces cerevisiae with 17 samples.

Results

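The mating-type-specific genes of budding yeast are transcribed in cells of the a type or in cells of the alpha type, not in both. A fixed list of 10 of them, out of 6002 nuclear protein-coding genes, was followed here. The list was chosen by name, with earlier results of these data known. It held 7 a-specific genes (MFA1, MFA2, STE2, STE6, BAR1, AGA2 and ASG7) and 3 alpha-specific genes (STE3, SAG1 and MF(ALPHA)1). The data are chromatin immunoprecipitation and sequencing (ChIP-seq) peaks of histone H3 dimethylated (H3K4me2) or trimethylated (H3K4me3) at lysine 4 in Saccharomyces cerevisiae. The series has 17 libraries, from 4 genotypes, 2 antibodies and 2 replicates, plus 1 input. The 4 peak lists used were those of replicate 1 of set1 deletion cells and of cells with wild-type Cps25, each with the H3K4me2 and the H3K4me3 antibody. The other 13 libraries were not analysed here.

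The labels give the strain as BY4741A for every group, grown in YPD to exponential phase and fixed with formaldehyde, with no allele other than the one named for the genotype. BY4741 is known as a haploid laboratory strain of the a mating type. Set1, which carries the catalytic activity of the COMPASS complex, is the H3K4 methyltransferase of this yeast, so the set1 deletion lists show where each antibody gave peaks without the enzyme. Cps25, also called Sdc1, is a further COMPASS subunit. The lists held 927 and 743 peaks for set1 deletion cells and 4393 and 4087 peaks for Cps25 wild-type cells, H3K4me2 before H3K4me3. With 1 list per group there is no spread between replicates, so no test was made between groups and every difference describes these libraries. Each peak has a score given by the authors, which is reported here as a percentile within its list, where 100 is the top. The wild-type lists had been filtered against set1 deletion peaks, as their names say, and 0 wild-type peaks overlapped a set1 deletion peak of the same antibody.

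Mating type is set by the MAT locus. In both cell types the transcription factor Mcm1 binds at the a-specific genes. In a cells Mcm1 activates the a-specific genes. In alpha cells the alpha1 protein acts with Mcm1 to activate alpha-specific genes, while the alpha2 protein acts with Mcm1 and the corepressor of Tup1 and Cyc8 to repress the a-specific ones. H3K4me3 is known to mark the 5′ ends of transcribed genes, with H3K4me2 reaching further into the gene.

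Most a-specific genes, but neither of the pheromone genes MFA1 and MFA2, carried listed peaks in Cps25 wild-type cells, and no alpha-specific member did. At MF(ALPHA)1 the filter would have kept out any wild-type peak overlapping a set1 deletion peak. The running numbers of the peak names, described below, skip none there in either list. Set1 deletion peaks lay over 0 of 7 a-specific ORFs with either antibody. Over all genes, 6.75% of ORFs lay under a set1 deletion H3K4me2 peak and 5.48% under a set1 deletion H3K4me3 peak. Of the same 7 ORFs, 5 lay under a Cps25 wild-type H3K4me2 peak and 3 under an H3K4me3 peak of that genotype, against 76% and 69.4% of all ORFs. The a-specific count for H3K4me2 is thus near the share over all genes, and that for H3K4me3 is below it. These shares are not matched for ORF length. The ORFs of MFA1, MFA2 and AGA2 are 111, 117 and 264 bp long. Among all ORFs shorter than 500 bp the wild-type shares were lower, at 50.7% for H3K4me2 and 46.1% for H3K4me3. Of the 3 alpha-specific ORFs, 1 lay under set1 deletion peaks of both antibodies and 0 under a listed wild-type peak of either. Together, 3 of the 10 members had both wild-type marks, 2 had H3K4me2 without H3K4me3 and 5 had neither. Over all genes these shares were 66.9%, 9.16% and 21.4%.

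**Figure D1:**
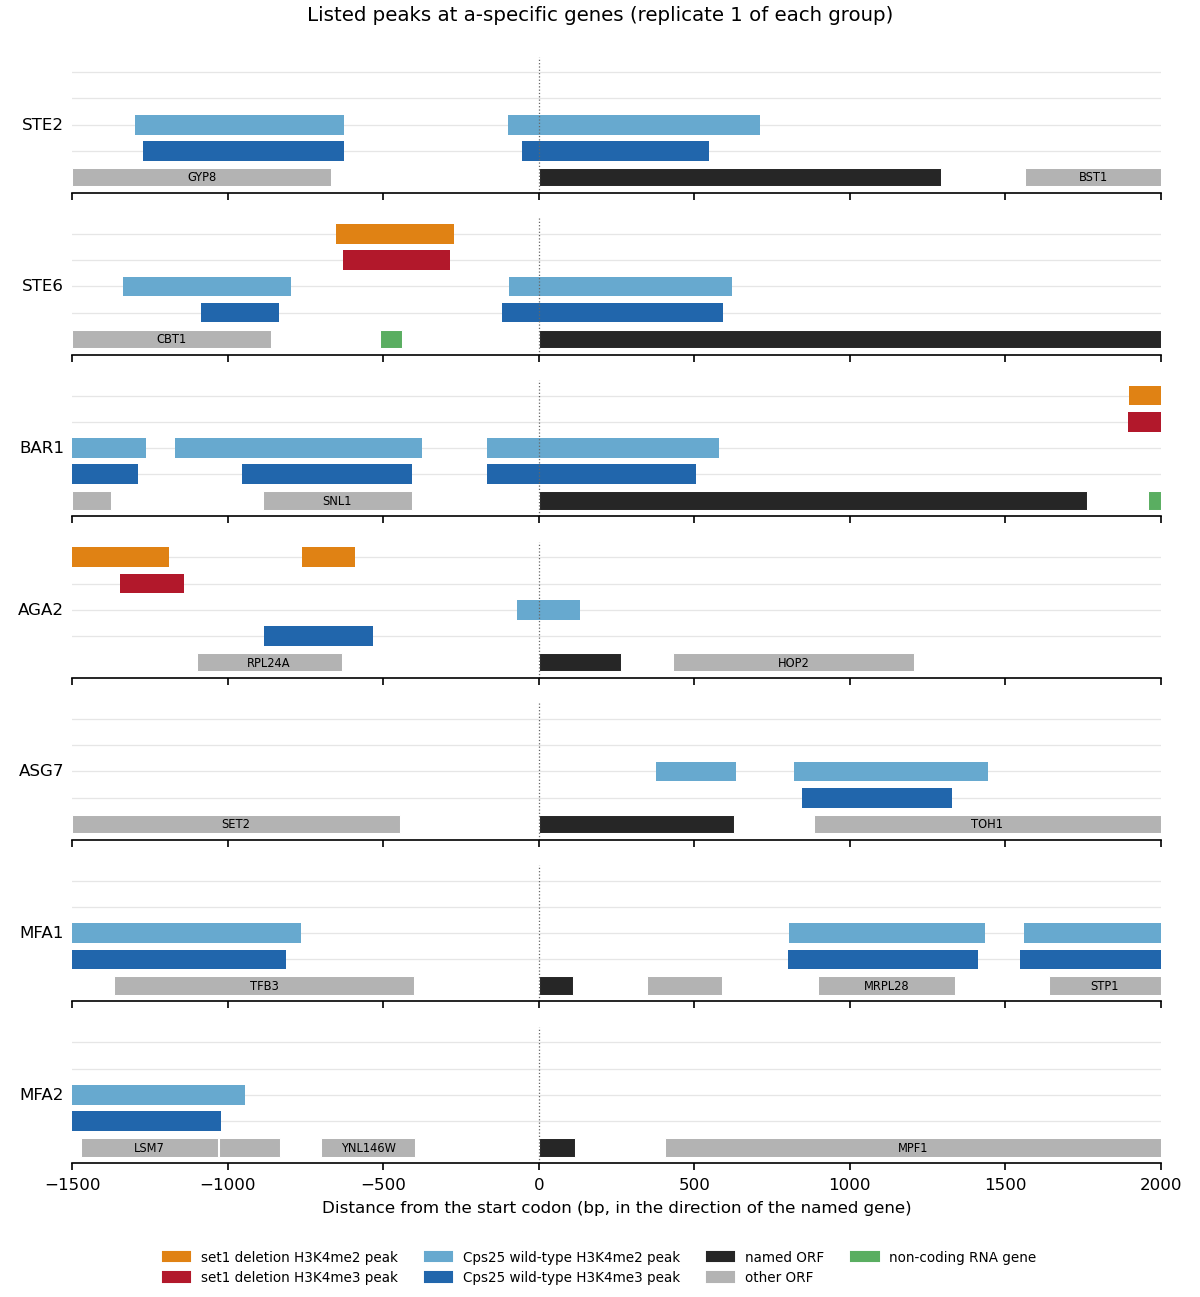
Listed peaks at the 7 a-specific genes, by distance from the start codon in bp along the direction of the named gene, with set1 deletion peaks above Cps25 wild-type peaks and ORFs on the bottom line of each panel. STE2, STE6 and BAR1 have peaks of both wild-type marks over the start codon, AGA2 has a short H3K4me2 peak there, the ASG7 peak lies at the end of the ORF, and MFA1 and MFA2 have none.

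STE2 encodes the receptor of a cells for alpha-factor, a G protein-coupled receptor of 431 amino acids (YFL026W, chromosome VI, 82580 to 83875 in sacCer3, plus strand). No set1 deletion peak lay within 6 kb of it, the nearest being 6081 bp upstream with the H3K4me2 antibody. The Cps25 wild-type H3K4me2 peak over STE2 spanned 82481 to 83291, that is from 99 bp before the start codon to 711 bp after it, at score percentile 40.8. The H3K4me3 peak spanned 82525 to 83126, from 55 bp before to 546 bp after the start codon, at percentile 21.0. The H3K4me2 peak thus covered 54.9% of the ORF and the H3K4me3 peak 42.2%. The divergent neighbour GYP8, 667 bp upstream, had separate peaks of both marks over its own start.

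STE6 encodes the transporter that exports a-factor, an ABC protein of 1290 amino acids (YKL209C, chromosome XI, 42423 to 46295, minus strand). Set1 deletion peaks of both antibodies lay upstream of it, over the tRNA gene TRT2, and ended 272 and 285 bp before the STE6 start codon. A Cps25 wild-type H3K4me2 peak from 45675 to 46390 reached from 95 bp before to 620 bp after the start codon, at percentile 82.0. The H3K4me3 peak from 45703 to 46414 reached from 119 bp before to 592 bp after it, at percentile 82.2. STE6 therefore ranked highest of the members in both wild-type lists. The peaks covered 16.0% and 15.3% of this long ORF.

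BAR1 encodes a secreted protease that cleaves alpha-factor (YIL015W, chromosome IX, 322342 to 324105, plus strand). Set1 deletion peaks of both antibodies lay 133 and 130 bp beyond the end of its ORF, at a tRNA gene. The wild-type H3K4me2 peak at BAR1 reached from 167 bp before to 578 bp after the start codon (322175 to 322920, percentile 23.1) and the H3K4me3 peak from 168 bp before to 507 bp after it (322174 to 322849, percentile 27.1). Both marks of BAR1 stood in the lower part of their lists.

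In these 3 genes the H3K4me2 peak ended further downstream than the H3K4me3 peak, by 165 bp at STE2, 71 bp at BAR1 and 28 bp at STE6. Over the 4014 genes with both marks over the ORF the median difference was 82 bp (quartiles 42 and 137). STE2 lay above these quartiles and STE6 below them. On the upstream side the H3K4me2 peak reached 44 bp further at STE2, whereas at STE6 and BAR1 the H3K4me3 peak reached further, with H3K4me2 minus H3K4me3 differences of -24 and -1 bp. Coverage by both wild-type lists was also compared between genes over the 500 bp before and the 1000 bp after the start codon. The gene most similar to STE2 was HSV2, with 48 of 3000 compared positions differing. For STE6 it was ERV14, a cargo receptor of transport vesicles, with 29 positions differing. For BAR1 it was EIS1, an eisosome protein, with 143 positions differing.

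AGA2 and ASG7 had H3K4me2 peaks of very low score and no listed H3K4me3 peak. AGA2 encodes the adhesion subunit of a-agglutinin, which binds the agglutinin of alpha cells (YGL032C, chromosome VII, 436570 to 436833, minus strand, 264 bp). Its nearest set1 deletion peaks lay 589 bp upstream with the H3K4me2 antibody and 1141 bp upstream with the H3K4me3 antibody, towards the ribosomal protein gene RPL24A. The wild-type H3K4me2 peak at AGA2 was 205 bp wide (436700 to 436904), ran from 71 bp before to 133 bp after the start codon and stood at percentile 1.79. ASG7 encodes an a-specific regulator of signalling from the G protein subunit Ste4 (YJL170C, chromosome X, 101150 to 101779, minus strand). No set1 deletion peak lay within 14 kb of it. Its wild-type H3K4me2 peak of 258 bp (101145 to 101402) lay from 377 to 634 bp after the start codon, at the end of the ORF, at percentile 0.558. This peak did not touch the ASG7 start codon, and the start of the next gene, TOH1, had separate peaks of both marks.

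MFA1 and MFA2, the genes of the a-factor precursors, had no listed peak in any of the 4 libraries. MFA1 (YDR461W, chromosome IV, 1385176 to 1385286, plus strand) is 111 bp long and encodes 36 amino acids, and MFA2 (YNL145W, chromosome XIV, 352414 to 352530, plus strand) is 117 bp long and encodes 38. Set1 deletion peaks were at least 13767 bp from MFA1 and at least 7070 bp from MFA2. In Cps25 wild-type cells the nearest H3K4me2 peaks were 765 bp upstream and 694 bp downstream of the MFA1 ORF, and the nearest H3K4me3 peaks 813 bp upstream and 692 bp downstream. Around MFA2 the H3K4me2 gaps were 945 and 2102 bp and the H3K4me3 gaps 1021 and 3962 bp. A smaller share of short ORFs than of all ORFs lay under a wild-type peak. Of the 63 ORFs shorter than 150 bp, 20.6% lay under a wild-type H3K4me2 peak and 17.5% under a wild-type H3K4me3 peak. Among the 893 ORFs shorter than 500 bp, to which MFA1, MFA2, AGA2 and MF(ALPHA)1 belong, the shares were 50.7% and 46.1%. A window from 250 bp before to 500 bp after the start codon, the same for every gene, was also used. MFA1 and MFA2 had no wild-type peak in it either, against 76.9% (H3K4me2) and 70.9% (H3K4me3) of all genes with one. The share of short ORFs with a peak in this window was not computed, so a part played by ORF length was not tested.

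The running numbers in the peak names show where numbers are absent from the filtered wild-type lists. In the wild-type lists every gap between listed peaks with a missing number held a set1 deletion peak of the same antibody, 291 of 291 gaps for H3K4me2 and 230 of 230 for H3K4me3. A further 286 H3K4me2 gaps and 282 H3K4me3 gaps held a set1 deletion peak with no number missing, which is 49.6% and 55.1% of the gaps with such a peak. In the 3800 H3K4me2 gaps and 3559 H3K4me3 gaps that held no set1 deletion peak, no number was missing. No number was missing in either list in the gaps around MFA1, MFA2, STE3, SAG1 and MF(ALPHA)1, nor around AGA2 and ASG7 for H3K4me3. Whether the numbers were given before the filter is not stated in the sources used here. Numbers given after it would leave none missing. Next to AGA2, 4 H3K4me2 numbers were missing between 72 and 5870 bp upstream of its start codon, where 6 set1 deletion peaks lay. Next to STE6, 1 H3K4me3 number was missing in the gap that holds TRT2, and 2 H3K4me2 numbers between 621 and 8026 bp after its start codon. Next to BAR1, 1 H3K4me2 number was missing in the gap from 579 to 12475 bp after its start codon.

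**Figure D2:**
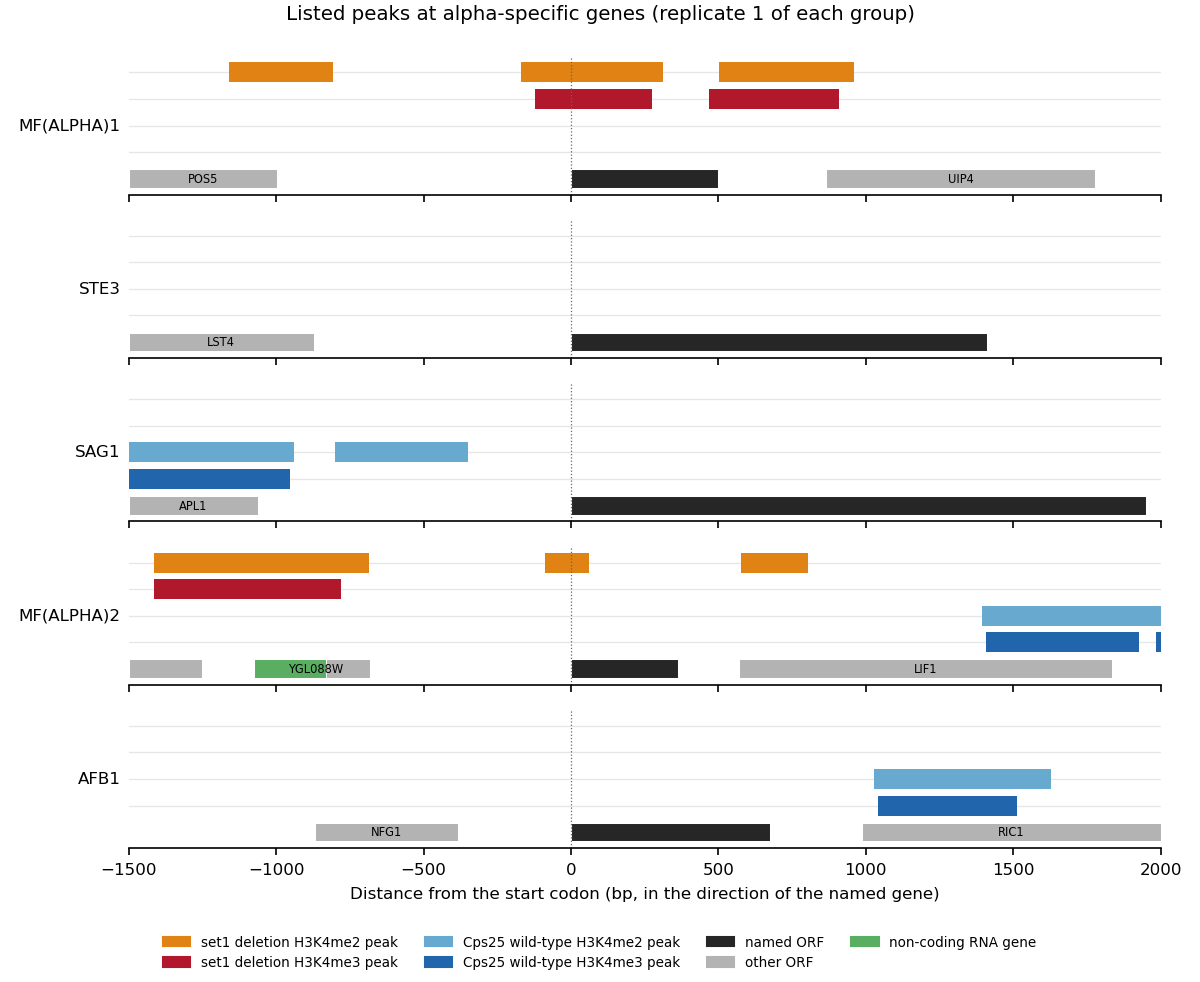
Listed peaks at the 3 alpha-specific members and at MF(ALPHA)2 and AFB1, by distance from the start codon in bp, drawn as for the a-specific genes. MF(ALPHA)1 has set1 deletion peaks of both antibodies over its start codon and no wild-type peak, and STE3, SAG1 and AFB1 have no peak over the ORF.

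MF(ALPHA)1 encodes the main precursor of the pheromone alpha-factor (YPL187W, chromosome XVI, 193648 to 194145, plus strand, 498 bp). In set1 deletion cells an H3K4me2 peak from 193478 to 193961 ran from 170 bp before to 313 bp after its start codon, at percentile 73.1, and covered 63.1% of the ORF. An H3K4me3 peak from 193524 to 193923 ran from 124 bp before to 275 bp after the start codon, at percentile 67.8. A further peak of each antibody lay at the end of the gene, from 502 to 961 bp after the start codon for H3K4me2 (percentile 66.4) and from 469 to 908 bp for H3K4me3 (percentile 46.4). In Cps25 wild-type cells no peak lay over MF(ALPHA)1, and the nearest were 1642 bp upstream and 3649 bp downstream for H3K4me2, and 1753 bp upstream and 3753 bp downstream for H3K4me3. MF(ALPHA)1 was thus the only member with a listed peak over the ORF in set1 deletion cells. Because of the filter, a wild-type peak overlapping these set1 deletion peaks could not be listed. The listed wild-type peaks on each side were numbered 4450 and 4451 for H3K4me2, and 4063 and 4064 for H3K4me3. No number was thus missing in this gap in either list. Absence from the filtered lists alone is no comparison of the groups at this gene.

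Few genes carried set1 deletion peaks in this position. Over all genes, 3.65% had set1 deletion peaks of both antibodies over the ORF. The start codon lay under a set1 deletion H3K4me2 peak in 2.7% of genes, under a set1 deletion H3K4me3 peak in 0.933% and under both in 0.783%, which is 47 genes. Of these 47, 7 lay in gaps with no number missing in either wild-type list, MF(ALPHA)1 among them. No non-coding RNA gene lay within 1000 bp of the ORF in 31 of the 47. Of these 31, 29 had a number missing in at least 1 list, and 2, TDH3 and MF(ALPHA)1, had none. These comparisons were chosen after the MF(ALPHA)1 values had been seen. The labels name the same strain for set1 deletion cells and Cps25 wild-type cells, and the mating type of each culture was not tested.

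STE3 and SAG1 had no peak over the ORF in any library. STE3 encodes the receptor of alpha cells for a-factor (YKL178C, chromosome XI, 113215 to 114627, minus strand). Its nearest set1 deletion peak lay 3279 bp away. In Cps25 wild-type cells the closest peaks were 648 bp (H3K4me2) and 638 bp (H3K4me3) beyond the end of the ORF, at the start of COY1, and upstream the gaps were 3011 and 3150 bp. SAG1 encodes alpha-agglutinin, the cell surface partner of Aga2 (YJR004C, chromosome X, 442909 to 444861, minus strand). Its nearest set1 deletion peak lay 6431 bp away. In Cps25 wild-type cells an H3K4me2 peak of 455 bp (445209 to 445663, score in the lower part of its list) lay 347 bp upstream of the SAG1 start codon, between SAG1 and the divergent gene APL1, whose start had separate peaks of both marks. The STE3 and SAG1 ORFs are 1413 and 1953 bp long, and a part played by ORF length was not tested.

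A pair of further alpha-specific genes had no Cps25 wild-type peak over the ORF. Over all genes, 21.4% had neither wild-type mark over the ORF. MF(ALPHA)2, the minor alpha-factor gene (YGL089C), had a set1 deletion H3K4me2 peak of 150 bp from 87 bp before to 62 bp after its start codon, at percentile 11.2, and no set1 deletion H3K4me3 peak over the ORF. In the wild-type lists 1 number was missing around it for each antibody, and set1 deletion peaks of both antibodies lay upstream at the small nucleolar RNA gene SNR10. Because of the filter, a wild-type H3K4me2 peak overlapping the set1 deletion peak at the MF(ALPHA)2 start codon could not be listed. AFB1, which encodes a secreted barrier protein against a-factor (YLR040C), had no peak over the ORF in any library. MF(ALPHA)1 and MF(ALPHA)2 encode the same pheromone, so reads in shared sequence may be placed in either.

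Of the 6 genes at the mating-type loci, whose sequences stand in more than 1 copy, 1 lay under a listed wild-type H3K4me2 peak. Of the same genes, 0 lay under a wild-type H3K4me3 peak. Over all genes these shares were 76% and 69.4%. The reference carries alpha information at MAT and at HML, and a information at HMR alone. No set1 deletion peak lay over any of the 6. The HMRA1 gene, whose product is the a1 protein, had a Cps25 wild-type H3K4me2 peak of 435 bp (chromosome III, 293819 to 294253) at percentile 6.02, which ran from 16 bp before to 418 bp after its start codon. No H3K4me3 peak was listed there. A read from a1 at the MAT locus of an a strain has only HMR to map to in this reference, so the locus that gave these reads cannot be told apart. MATALPHA1, MATALPHA2, HMLALPHA1, HMLALPHA2 and HMRA2 had no peak.

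**Figure D3:**
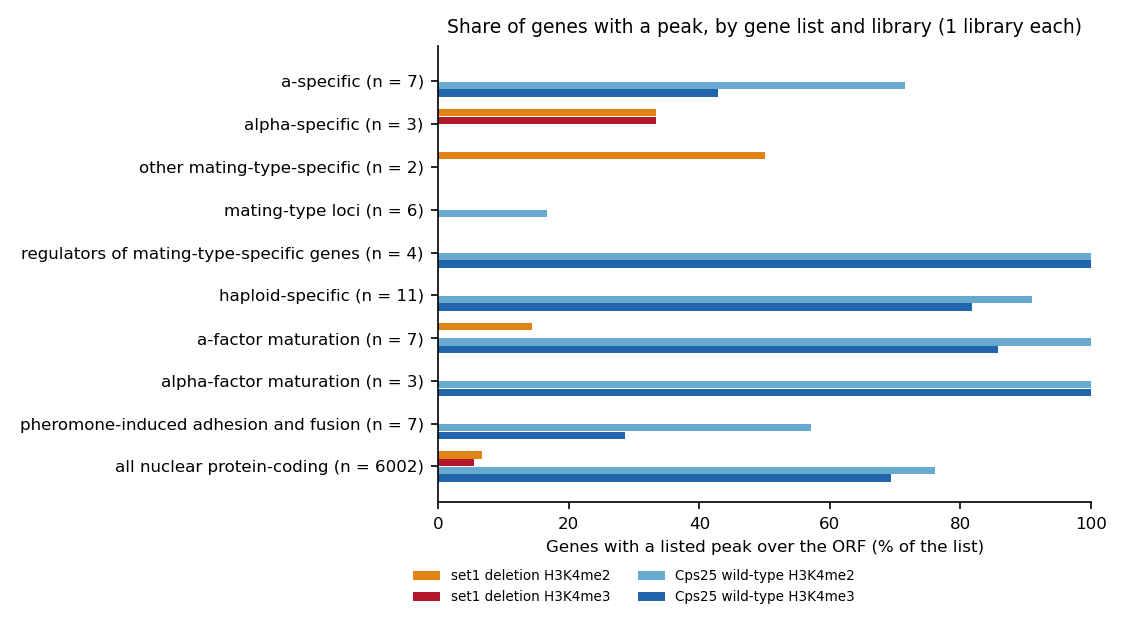
Percentage of genes in each list with a listed peak over the ORF, with a bar per library, set1 deletion above Cps25 wild type. The 3 alpha-specific genes have no wild-type bar, while the regulators and the alpha-factor maturation genes reach 100% for both wild-type marks.

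Genes that act in both mating types, or in the making of either pheromone, were counted in the same way, to be read against the shares over all genes of 6.75% and 5.48% in set1 deletion cells and 76% and 69.4% in Cps25 wild-type cells (H3K4me2 before H3K4me3). The regulators of the mating-type-specific genes had no set1 deletion peak, and 4 of 4 had both wild-type marks. CYC8 and TUP1, the corepressor genes, stood at percentiles 99.1 and 98.4 for H3K4me2 and 98.3 and 96.2 for H3K4me3. MCM1 stood at 64.2 and 89.9, and STE12, the transcription factor of the pheromone response, at 57.1 and 66.0. Of 11 haploid-specific genes, which a and alpha cells share and a/alpha diploids repress, 0 had a set1 deletion peak, 10 had a wild-type H3K4me2 peak and 9 a wild-type H3K4me3 peak, which is 90.9% and 81.8%. STE5, the scaffold of the pheromone kinase cascade, led them at 94.5 and 95.3. HO, the endonuclease of mating-type switching, had no peak, and RME1, a repressor of meiosis, had H3K4me2 alone at percentile 4.97. NEJ1 counts for H3K4me3 through a peak at percentile 2.61, which lay over the end of the ORF and not its start codon.

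The enzymes that mature the pheromones are encoded by genes outside the mating-type-specific set. Of 7 a-factor maturation genes, 1 had a set1 deletion peak (STE23, H3K4me2 antibody, away from its start codon), 7 had a wild-type H3K4me2 peak and 6 a wild-type H3K4me3 peak. STE24, a protease of a-factor, stood at percentiles 96.9 and 75.9, and RCE1, another protease of CAAX proteins, had H3K4me2 alone at 8.75. AXL1, which trims a-factor, belongs to this list and to the haploid-specific one, and stood at 70.0 and 66.4. All 3 alpha-factor maturation genes, KEX2, KEX1 and STE13, had both wild-type marks and no set1 deletion peak. KEX2, the protease that cuts the alpha-factor precursor, stood at 96.6 for H3K4me2 and 55.5 for H3K4me3.

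The 7 genes of adhesion and fusion that pheromone induces had 0 set1 deletion peaks, 4 wild-type H3K4me2 peaks and 2 wild-type H3K4me3 peaks. These wild-type shares of 57.1% and 28.6% stand against 76% and 69.4% over all genes. KAR4, a regulator of karyogamy genes, stood at percentiles 46.0 and 52.1. FUS1, needed for cell fusion, stood at 3.85 and 2.54, with only its H3K4me2 peak over the start codon. AGA1, which anchors Aga2 to the wall, had an H3K4me2 peak at percentile 5.27 that did not touch its start codon, and FIG2 had H3K4me2 alone at 13.0. FUS2, FIG1 and PRM1 had neither mark.

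**Figure D4:**
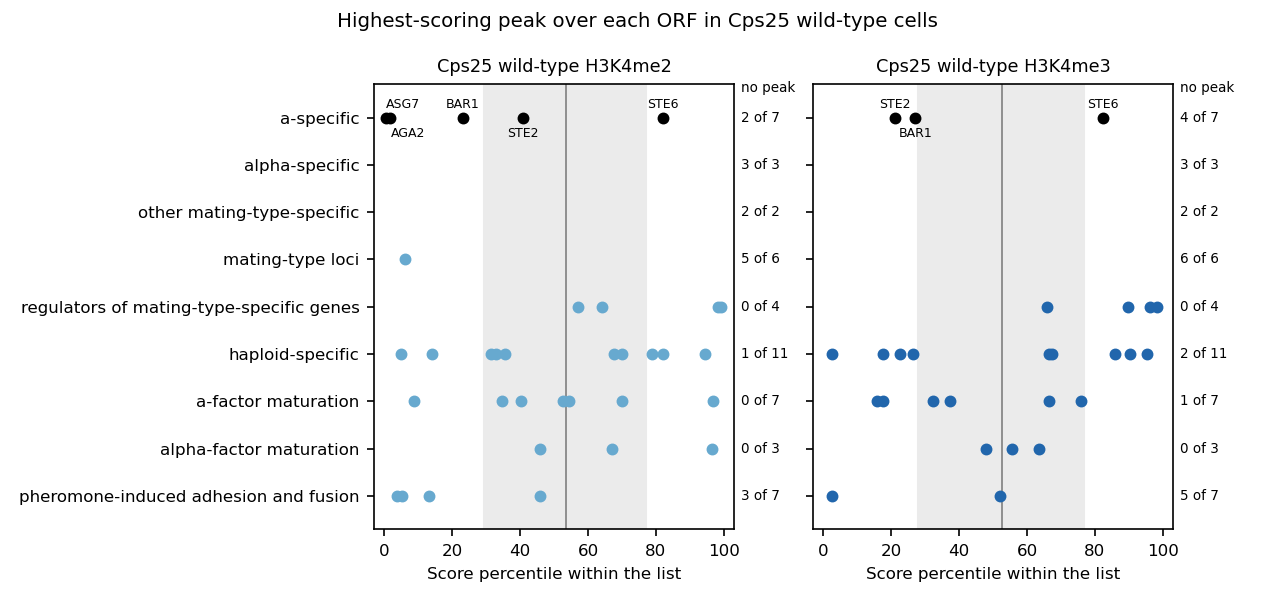
Score percentile, within its list, of the highest-scoring wild-type peak over each ORF, by gene list, with the number of genes without a peak at the right. The grey band and line give the quartiles and the median over all genes with a peak, and of the members STE6 alone lies above that median.

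By score, the members with a wild-type peak stood below the median over all genes in both lists, except STE6. The 5 a-specific genes with an H3K4me2 peak had a median percentile of 23.1, against a median of 53.5 over the 4564 genes with such a peak (quartiles 29.4 and 77.0). The 3 with an H3K4me3 peak had a median of 27.1, against 52.7 over 4167 genes (quartiles 27.7 and 76.8). The authors' deposited cluster number put the H3K4me2 peaks of STE2 and STE6 in cluster 1, which holds 18.9% of the peaks of that list, and those of BAR1, AGA2 and ASG7 in cluster 2. By distance from the start codon, H3K4me2 peaks covered 57.1% of the bases in the first 100 bp of the a-specific genes and 0% in the alpha-specific ones, against 72.9% over all genes. H3K4me3 peaks covered 42.9% and 0% of the same bases, against 66.1% over all genes. From 500 to 600 bp after the start codon, H3K4me2 covered 54.1% in the a-specific genes, against 44.7% over all genes. This value includes the ASG7 peak at percentile 0.558, which spans 377 to 634 bp and does not touch the start codon. From 400 to 500 bp, H3K4me3 covered 42.9% in the a-specific genes, against 42.3% over all genes. The ORFs of MFA1, MFA2 and AGA2, of 111, 117 and 264 bp, end before both windows.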

How the data were processed

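Peak lists of 4 libraries were used, all replicate 1. Groups and replicate numbers came from the sample titles. Per the submitters' processing notes, Bowtie 1.1.2 and MACS2 2.1.1 were run with build sacCer3, and settings are not given in the sources used here. The authors deposited a score per peak, whose scale is not stated, and it was used only to rank peaks within a list. The score percentile counts from the lowest score. Per the file headers, the wild-type H3K4me2 list also holds widths and distances in bp and a cluster number (other columns the authors deposited). The 3 lists without a header were read as BED, counted from 0. The read depth is unknown, and 2 gene ontology tables were not used.

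Gene positions were taken from RefSeq, assembly R64, the same assembly as sacCer3, in which all 10 members and 39 further genes of 7 lists were found by symbol. Strand was read from the systematic name. A gene had a peak when at least 1 bp of its ORF was covered. The named genes are the members, the listed genes, the neighbours of the members and the genes with the most similar coverage. MF(ALPHA)1 was compared with other genes under set1 deletion peaks after its values had been seen. Members and lists were chosen with earlier results of these data known. No p-value is given, since each group has 1 list. Promoter and protein sequences were not used here.

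Python 3.11.15, pandas 2.3.3, numpy 2.4.6 and matplotlib 3.10.9 were used. Overlaps were tested on simulated data and checked against bedtools 2.31.1, with 0 genes differing.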

Additional observations from a re-analysis of the deposited data

How the results depend on the processing

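Counts of members with a peak over the ORF were recomputed with the upper 50% of each list by score, with 50% of the ORF or peak covered, in the first 500 bp of the ORF, from 250 bp upstream to 500 bp downstream, with peaks within 200 bp merged, with peaks extended by 100 bp and, added after seeing the data, over the start codon. Among peaks in the upper 50% by score, the a-specific count was 1 of 7 for wild-type H3K4me2 and 1 of 7 for wild-type H3K4me3, STE6 in each list. Over all genes the shares under this setting were 40.9% and 36.7%. The difference in peak ends then rests on STE6 alone, at 28 bp against the reported median of 71 bp over 3 genes. The other counts of members stayed within 1.5 times the reported count under the settings above, and counts of 0 stayed at 0. Merging peaks within 200 bp also left the counts over all genes as reported, at 4564 for wild-type H3K4me2 and 4167 for H3K4me3. That setting could thus hardly change a count of members. No paired analysis was possible because each group has 1 list. Read depth is unknown, so an unlisted peak does not show that the mark is absent.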

Other observations

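The gene that the authors deposited as nearest to each wild-type H3K4me2 peak was rarely the gene under it. A start codon of a nuclear protein-coding gene lay under 3993 of the 4393 peaks, and the deposited nearest gene was one of those under the peak in 4 cases (0.100%) and another gene in 3989. The peaks over the starts of STE2, STE6, BAR1 and AGA2 were assigned to GYP8, CBT1, SNL1 and RPL24A. In turn 6 peaks were assigned to members, 1 each to MFA1, STE2, ASG7 and MF(ALPHA)1 and 2 to SAG1, and 0 of them lay over the ORF of that member. By the deposited names MFA1 and the alpha-specific genes MF(ALPHA)1 and SAG1 have H3K4me2 peaks, and STE6, BAR1 and AGA2 have none.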
